A study of Homo sapiens with 4 samples.

Results

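The aminoacyl-tRNA synthetases are the enzymes that join each amino acid to its tRNA. Their mRNAs were read out of RNA sequencing tables of the SH-SY5Y cell line, which was established from a human neuroblastoma and serves as a neuronal model. The set was defined by gene name and comprised 36 of the 58243 genes in the tables, 20 for cytosolic and 16 for mitochondrial enzymes, the latter being the names that end in 2. The rule used no measured value, but the set was chosen with earlier results of these data known.

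Untreated cells gave the 2 control libraries, a and b. The SNP group comprised 2 libraries, also a and b, treated with the nitric oxide donor sodium nitroprusside (SNP) for 8 h. All cells were grown in medium with fetal bovine serum. The labels call the RNA of the treated cells oxidized, describe no step that selected oxidized RNA, and leave the dose of the sequenced libraries unstated. The treatment text speaks of cells differentiated with retinoic acid, and no label says whether the sequenced cells were. No label says that a and b were separate cultures, so the p-values measure the spread between these libraries, which may be technical.

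A synthetase activates its amino acid with ATP and then transfers it to the end of the matching tRNA. By the fold of the catalytic core, the enzymes fall into class I and class II. The cytosol and the mitochondrion have their own enzymes for most amino acids, all encoded in the nucleus. KARS (lysine) and GARS (glycine) each serve both compartments from 1 gene, and mitochondrial glutaminyl-tRNA is made by an amidotransferase instead of a synthetase. In animal cells 8 of the cytosolic enzyme genes listed here encode members of the multisynthetase complex, which is held together by the scaffold proteins AIMP1, AIMP2 and EEF1E1. Many cytosolic synthetase genes are known targets of ATF4, the transcription factor of the amino acid and stress response.

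The gene counts summed to between 5613144 and 8056550 per library, so that a floor of 3 counts corresponded to between 0.372 and 0.534 CPM (normalised counts per 1000000 counts). Each of the 36 genes was above this floor in each library, with 70 counts (PARS2) to 4037 counts (LARS) and a median of 530.5. The floor covers counting error only. Of 12 markers of the sympathoadrenal lineage, from which this line derives, 11 passed the filter on low counts and TH, the rate-limiting enzyme of catecholamine synthesis, was listed at 0 in each library. Their summed level was 3381 and 3462 CPM in control and 2730 and 2870 CPM in SNP libraries. The markers did not move one way. DBH, which makes noradrenaline (log2 fold change -1.38), PHOX2A, GATA2 and GATA3 were among those that fell, while the granule proteins CHGA (0.91) and CHGB (0.97) and the transcription factor HAND2 (0.41) rose by the same test as the synthetases. The summed level of 10 mesenchymal and glial markers lay between 109 and 126 CPM, with SOX10 at 0. Within it COL3A1 rose (0.68), and PDGFRB (-0.91) and COL1A2 (-1.67) fell. The summed level of 6 blood and epithelial markers lay between 2.64 and 5.84 CPM, with PTPRC and HBB at 0. The part of this marker shift in the changes below was not tested.

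Under SNP, 7 of the 20 cytosolic synthetase mRNAs rose and 1 fell, and 1 of the 16 mitochondrial synthetase mRNAs rose and 2 fell. The risers were EPRS, NARS, HARS, SARS, AARS, TARS and LARS in the cytosolic set and HARS2 in the mitochondrial set. VARS, FARS2 and TARS2 fell. In bulk RNA, less of a transcript per cell and fewer cells that carry it cannot be told apart. A gene was called changed at an adjusted p below 0.05 by the quasi-likelihood test of edgeR, adjusted by Benjamini-Hochberg over the 14759 genes tested, and all 36 genes were tested. The 11 calls amount to 30.6% of the 36 genes, close to the 26.2% of all genes tested that were called, so their number is not a result about synthetases. By direction, 13.6% of all genes tested were called higher and 12.6% lower. The cytosolic genes were called higher in 35.0% of cases, and their median log2 fold change was 0.14, against -0.0042 over all genes tested. The mitochondrial median was 0.0064, with 8 genes above and 8 below 0.

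These counts rest on few libraries. Without control a, 4 of the 20 cytosolic genes passed the threshold instead of 8, and without control b 5 did. For the mitochondrial genes the count was 2 without control a, 1 without SNP a and 0 without control b (4 at an unadjusted p below 0.05), all in edgeR.

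Both SNP libraries lay on the same side of both control libraries for 25 of the 36 genes (69.4%), 15 higher and 10 lower in SNP. The same held for 64.0% of all genes tested, 31.7% higher and 32.3% lower.

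**Figure D1:**
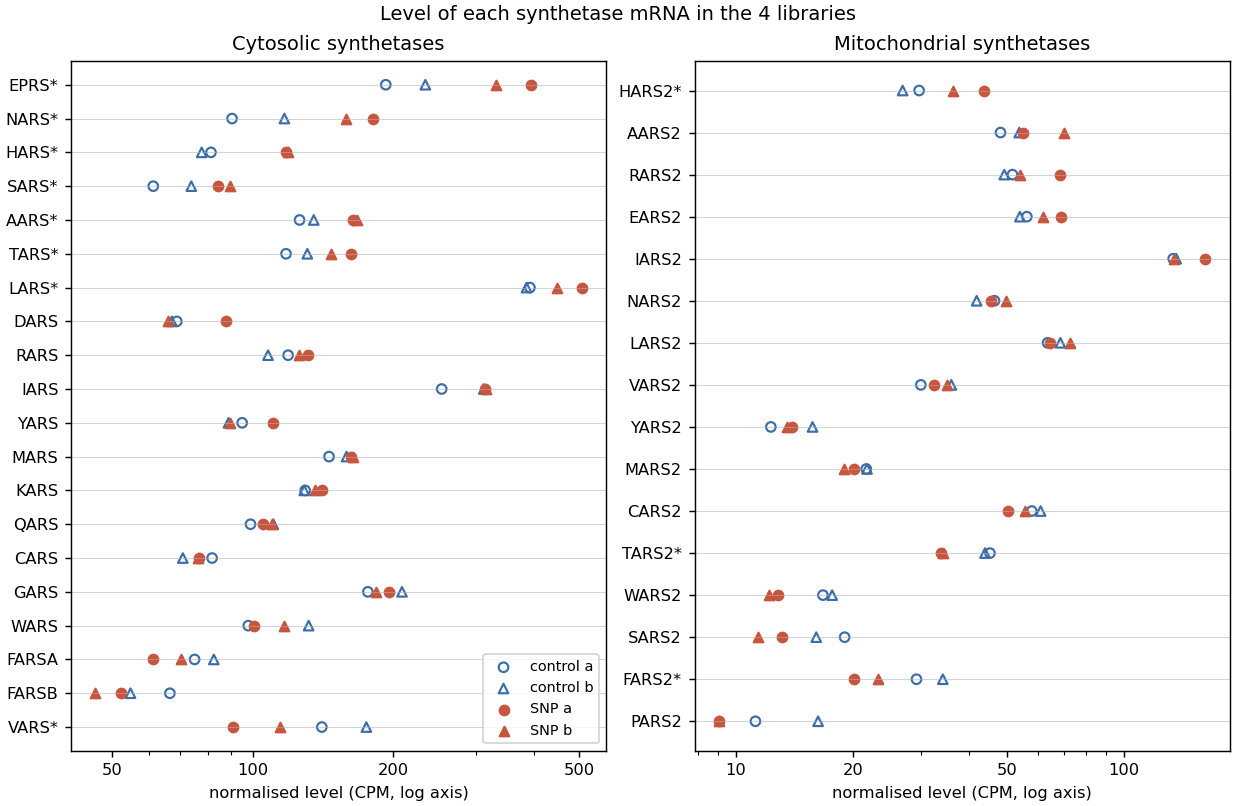
Normalised level in CPM (log axis) of each synthetase mRNA in control a and b (open symbols) and SNP a and b (filled symbols), cytosolic genes left and mitochondrial genes right, ordered by log2 fold change. An asterisk marks an adjusted p below 0.05; the SNP symbols of EPRS, NARS and HARS lie to the right of both control symbols and those of VARS to the left.

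The largest rise was that of EPRS, which encodes a fused enzyme for glutamate and proline and a member of the multisynthetase complex. EPRS stood at 193 and 234 CPM in control a and b, and at 394 and 331 CPM in SNP a and b. The groups did not overlap, and the lower SNP library exceeded the higher control library by more than the gap between the control libraries. The log2 fold change was 0.77 ± 0.109 (SE), a 1.70-fold rise, with an edgeR adjusted p of 3.5e-05. EPRS remained called in all 15 alternative analyses. The gene (ENSG00000136628) spans chr1:219968601-220046658 on the minus strand of GRCh38, with 33 merged exons of 5450 bases in GENCODE 29.

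NARS encodes the cytosolic asparaginyl enzyme, a class II synthetase. NARS was measured at 90.3 and 117 CPM in control and at 181 and 159 CPM in SNP libraries. The control libraries differed from each other by more than the SNP libraries did, and the groups did not overlap. NARS rose by a log2 fold change of 0.72 ± 0.121 (SE, edgeR adjusted p = 1.7e-04). The gene lies at chr18:57600656-57622213 on the minus strand.

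HARS encodes the cytosolic histidyl enzyme. Its level was 81.4 and 77.7 CPM in control and 118 and 119 CPM in SNP libraries, with replicates of each group close together and the groups well apart. HARS rose by a log2 fold change of 0.57 ± 0.109 (SE, edgeR adjusted p = 5.4e-04). NARS and HARS each kept the call in 14 of 15 alternatives. HARS lies at chr5:140673904-140691862 on the minus strand and shares 437 exonic bases with HARS2 on the plus strand. No source says whether the authors counted by strand, so reads from the shared bases cannot be told apart.

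Smaller rises were measured for 4 further cytosolic genes, and each lost the call when single libraries were left out. SARS, the seryl enzyme, was at 61.2 and 73.8 CPM in control and 84.1 and 89.4 CPM in SNP libraries (log2 fold change 0.36, edgeR adjusted p = 0.0302). AARS, the alanyl enzyme, was at 126 and 135 CPM in control and 164 and 167 CPM in SNP libraries (0.34, adjusted p = 0.0166). TARS, the threonyl enzyme, was at 118 and 131 CPM in control and 162 and 147 CPM in SNP libraries (0.32, adjusted p = 0.0318). In none of these 3 genes did the groups overlap.

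LARS, the leucyl enzyme of the multisynthetase complex, also acts as a leucine sensor upstream of mTORC1. Its level was 392 and 386 CPM in control and 507 and 448 CPM in SNP libraries (log2 fold change 0.29, edgeR adjusted p = 0.0226). The groups did not overlap, and the SNP libraries differed from each other by about as much as the lower SNP library exceeded control.

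The 4 calls depended on the libraries as follows, in edgeR. Without control a, the adjusted p was 0.430 for SARS, 0.228 for AARS, 0.349 for TARS and 0.0951 for LARS. Without control b it was 0.0717 for AARS, 0.0759 for TARS and 0.121 for LARS. Without SNP a it was 0.128 for TARS and 0.170 for LARS, and without SNP b it was 0.0609 for SARS. SARS and TARS also lost the call under DESeq2's Wald test (adjusted p = 0.0823 and 0.0623). TARS and LARS lost it when libraries were scaled to the read totals implied by RPKM (0.0572 and 0.0851 in edgeR). LARS also lost it with offsets for length and GC content (0.18, edgeR adjusted p = 0.0651), alone or with the replicate letter as a block (0.18, adjusted p = 0.0582).

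VARS, the valyl enzyme, was the cytosolic gene that fell. VARS stood at 141 and 175 CPM in control and 90.5 and 114 CPM in SNP libraries. Both SNP libraries were below both control libraries, and the spread within each group was wide. The log2 fold change was -0.62 ± 0.125 (SE, edgeR adjusted p = 8.9e-04), and VARS remained called in all 15 alternatives. The gene lies at chr6:31777518-31795953 on the minus strand.

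The cytosolic phenylalanyl enzyme is built from both products of FARSA and FARSB, and neither mRNA passed the threshold. FARSA was at 75.1 and 82.5 CPM in control and 61.1 and 70.2 CPM in SNP libraries (log2 fold change -0.26, edgeR adjusted p = 0.116). FARSB was at 66.4 and 54.7 CPM in control and 52.2 and 46.0 CPM in SNP libraries (-0.30, adjusted p = 0.0969). In both genes the SNP libraries were below the control libraries.

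The remaining 10 cytosolic genes had log2 fold changes between -0.08 and 0.18 and did not pass the threshold. They were WARS (-0.08), GARS (-0.02), CARS (0.0013), QARS (0.036), KARS (0.096), MARS (0.10), YARS (0.12), IARS (0.16), RARS (0.18) and DARS (0.18). In DARS and IARS 1 library stood apart from the other 3. DARS was at 68.8 and 67.1 CPM in control and 87.8 and 66.0 CPM in SNP libraries, and without SNP b it passed the threshold (adjusted p = 0.0212). IARS was at 254 CPM in control a, and control b (313 CPM) lay near SNP a and b (315 and 316 CPM). Part of MARS lies on exons of other genes, with 355 bases shared with DDIT3 and 519 with ARHGAP9.

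The 8 genes of the multisynthetase complex are EPRS, IARS, LARS, MARS, QARS, RARS, KARS and DARS. Their log2 fold changes were above 0 in 8 of 8, with a median of 0.17, and 2 of them (25.0%), EPRS and LARS, were called higher. Over all 14759 genes tested, 7329 had a value above 0 and 13.6% were called higher. The common sign of the 8 genes did not hold in each alternative. With the composition offsets LARS (-0.14), DARS (-0.15) and RARS (-0.20) were below 0 and the median was 0.019, and without SNP a DARS was at -0.04. Without offsets the 12 cytosolic genes outside the complex had a median of 0.061, with 5 (41.7%) called higher and 1 (8.33%) lower. Over all genes tested these shares were 13.6% and 12.6%. With the composition offsets the median of the 12 was -0.0079. Of the 3 scaffold genes, AIMP2 fell. AIMP2 was at 33.1 and 43.6 CPM in control and 24.9 and 26.6 CPM in SNP libraries (log2 fold change -0.57, edgeR adjusted p = 0.0125). That call was lost without control b (adjusted p = 0.285), under DESeq2's Wald test (0.0523) and with the offsets for base composition described below (0.0969 in edgeR). AIMP1 (0.20, adjusted p = 0.375) and EEF1E1 (-0.24, adjusted p = 0.432) did not pass the threshold.

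By enzyme class, 6 of the 17 class II genes (35.3%) were called higher and 2 (11.8%) lower. Of the 19 class I genes, 2 (10.5%) were called higher and 1 (5.26%) lower, against 13.6% higher and 12.6% lower over all genes tested. The class II risers were NARS, HARS, SARS, AARS, TARS and HARS2, and the class I risers were EPRS and LARS. This order turned with the offsets for base composition described below. None of the 6 class II rises was then called, FARSA, FARS2 and TARS2 were called lower, and of class I EPRS and RARS2 were called higher and VARS lower. The difference between the classes was not tested.

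Of the 12 cytosolic synthetase genes listed as ATF4 targets, 6 rose, where 13.6% of all genes tested were called higher, and 6 did not pass the threshold. The risers were EPRS, NARS, SARS, AARS, TARS and LARS, and the others were IARS, YARS, MARS, CARS, GARS and WARS. The median log2 fold change over the 12 was 0.23. The control libraries also differed along this list, with control a below control b in CPM for all but CARS, LARS and YARS. In control a and b, IARS was at 254 and 313 CPM, WARS at 97.8 and 132 CPM and LARS at 392 and 386 CPM. The part of this difference in the rises was not tested. With the composition offsets 1 of the 12, EPRS, was called higher and the median was 0.052. Over the 8 cytosolic genes not on that list, the median without offsets was 0.066, with HARS called higher and VARS lower. With the offsets their median was -0.175, FARSA and VARS were called lower, and HARS was not called.

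ATF4 pairs with C/EBP proteins on composite elements that hold the letters TGATGNAA. These letters were searched on both strands of RefSeq promoter windows of GRCh38.p14, each from 250 bases before to 50 bases after a gene's start. Windows were found for 30 of the 36 genes, and 7 of the 16 cytosolic genes matched had the letters (7 of 21 windows, 33.3%). Of the 14 mitochondrial genes matched, 1 had them (1 of 18 windows, 5.56%), and 3.62% of all windows listed by RefSeq did. The 8 matches are printed below 5′ to 3′ on the gene's strand, with the matched letters in capitals, to show their flanking bases. The search fixed all capitals except the letter at N, so apart from direction only that letter could differ between genes.
AARS, chr16:70289675-70289704, minus strand: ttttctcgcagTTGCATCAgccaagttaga
CARS, chr11:3057407-3057436, minus strand: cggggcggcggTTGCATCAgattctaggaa
GARS, chr7:30594834-30594863, plus strand: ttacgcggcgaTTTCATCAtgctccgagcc
IARS, chr9:92293692-92293721, minus strand: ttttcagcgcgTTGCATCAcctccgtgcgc
MARS, chr12:57488053-57488082, plus strand: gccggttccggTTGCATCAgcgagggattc
NARS, chr18:57621804-57621833, minus strand: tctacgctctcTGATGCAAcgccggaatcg
TARS, chr5:33440956-33440985, plus strand: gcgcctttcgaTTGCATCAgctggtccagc
YARS2, chr12:32756076-32756105, minus strand: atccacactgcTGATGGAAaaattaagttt

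In 6 of the 7 cytosolic windows the matched letters were TTGCATCA or its reverse complement TGATGCAA. GARS had TTTCATCA. The match of AARS began 187 bases before the start of the gene, and those of the other 6 cytosolic genes began from 33 bases before to 15 bases after it. The letters did not separate the genes that rose from the others. Of the cytosolic genes with a window, 3 of the 6 that rose had the letters (NARS, AARS and TARS), and so did 4 of the 10 that did not rise. EPRS, the gene with the largest rise, had no match in its window. The 60 bases before its start are printed because they stand for a riser without these letters.
EPRS, chr1:220046506-220046565, minus strand: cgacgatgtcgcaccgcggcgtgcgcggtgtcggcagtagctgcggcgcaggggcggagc

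Among the mitochondrial synthetases, HARS2 rose and FARS2 and TARS2 fell. HARS2, the mitochondrial histidyl enzyme, was at 29.7 and 26.9 CPM in control and 43.7 and 36.3 CPM in SNP libraries. The groups did not overlap, and the log2 fold change was 0.50 ± 0.153 (SE, edgeR adjusted p = 0.0199). Without control a, control b or SNP a the adjusted p was 0.0585, 0.162 and 0.132, and under DESeq2's Wald test it was 0.0770. HARS2 lies at chr5:140691426-140699318 on the plus strand, beside HARS.

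FARS2, the mitochondrial phenylalanyl enzyme, was at 29.2 and 34.2 CPM in control and 20.2 and 23.3 CPM in SNP libraries. It fell by 0.54 on the log2 scale (SE 0.166, edgeR adjusted p = 0.0198), with no overlap of the groups. The call was lost without control b (adjusted p = 0.211), without SNP a (0.0838) and under DESeq2's Wald test (0.0839). With read totals implied by RPKM FARS2 was not called either (edgeR adjusted p = 0.0518). The gene lies at chr6:5261044-5829192 on the plus strand.

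TARS2, the mitochondrial threonyl enzyme, was at 45.2 and 43.9 CPM in control and 33.8 and 34.3 CPM in SNP libraries. Replicates lay close together in both groups. The log2 fold change was -0.39 ± 0.138 (SE, edgeR adjusted p = 0.0409), the weakest of the 11 calls by adjusted p. Leaving out any 1 library ended it, with adjusted p of 0.227 without control a, 0.159 without control b, 0.0783 without SNP a and 0.0544 without SNP b. The call was also lost under DESeq2's Wald test, with read totals implied by RPKM and when all genes with any count were kept. The replicate block with length and GC offsets ended it too. TARS2 lies at chr1:150487364-150507609 on the plus strand.

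A further 3 mitochondrial genes had values below control of similar size but did not pass the threshold. PARS2, the prolyl enzyme and the least counted member, was at 11.2 and 16.3 CPM in control and 9.04 and 9.05 CPM in SNP libraries (log2 fold change -0.60, edgeR adjusted p = 0.0709). SARS2, the seryl enzyme, had -0.52 (adjusted p = 0.0646), and 1492 of its 3231 exonic bases are shared with AC011455.2. WARS2, the tryptophanyl enzyme, had -0.46 (adjusted p = 0.0919).

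In the other direction, AARS2 (0.30, adjusted p = 0.116), RARS2 (0.28, adjusted p = 0.130) and EARS2 (0.25, adjusted p = 0.149) had values above control without passing the threshold. The remaining 7 mitochondrial genes lay between -0.17 and 0.14. They were CARS2 (-0.17), MARS2 (-0.15), YARS2 (-0.02), VARS2 (0.04), LARS2 (0.06), NARS2 (0.11) and IARS2 (0.14). VARS2 shares 1858 of its 8448 exonic bases with GTF2H4.

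The cytosolic and mitochondrial enzymes of the same amino acid could be set side by side in 17 pairs over 16 amino acids, with EPRS entering for both glutamate and proline. The log2 fold change of the cytosolic gene was above that of its mitochondrial partner in 15 of 17 pairs. The exceptions were arginine (RARS 0.18, RARS2 0.28) and valine (VARS -0.62, VARS2 0.04). For isoleucine, alanine and histidine the difference (0.022, 0.045 and 0.075) was smaller than the SE of either gene. With the composition offsets the order also turned for alanine (AARS 0.016, AARS2 0.202), leucine (LARS -0.137, LARS2 0.008) and methionine (MARS 0.071, MARS2 0.091). For threonine the cytosolic mRNA rose and the mitochondrial one fell, and for histidine both rose. The pairs share genes and libraries, and the differences within pairs were not tested.

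**Figure D2:**
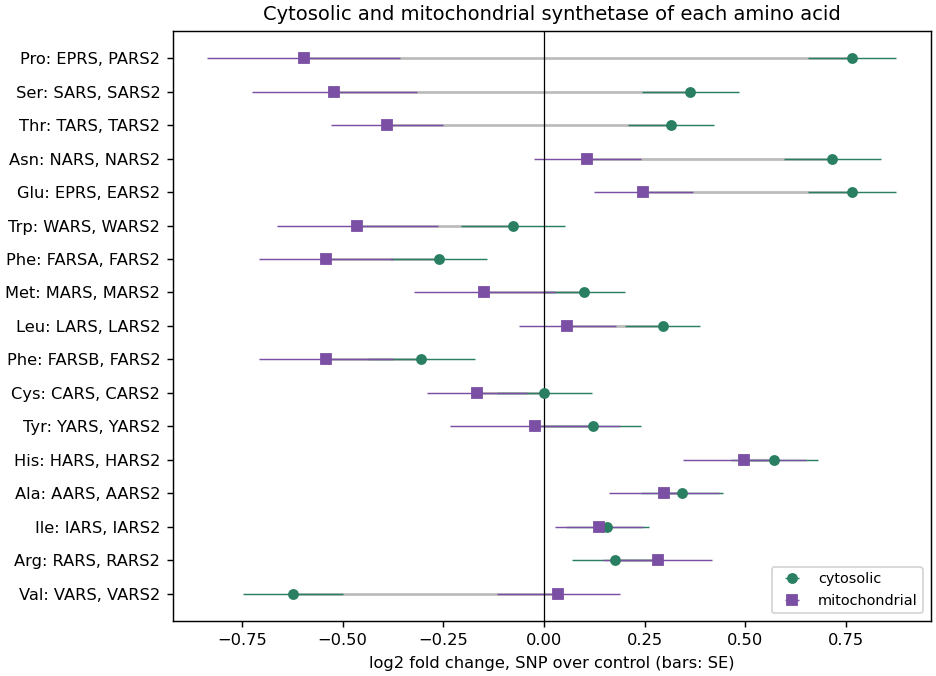
Log2 fold change of SNP over control, without offsets, for the cytosolic (circles) and mitochondrial (squares) synthetase of each amino acid, with bars of 1 SE from edgeR. The circle lies to the right of the square in 15 of 17 pairs, the exceptions being arginine and valine.

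Levels were compared between genes on the deposited TPM values (transcripts per 1000000, a unit that accounts for transcript length). In control libraries the cytosolic LARS (226 ± 0.377 TPM), GARS (219 ± 28.9), EPRS (185 ± 27.9) and IARS (181 ± 28.8; SD, n = 2 each) were highest, and the ranges of neighbours in this order overlapped between the control libraries. LARS was above GARS in control a and below it in control b, whereas GARS was above EPRS in both, at 199 against 165 TPM in control a and 239 against 205 TPM in control b. The lowest cytosolic gene was CARS at 35.8 TPM. IARS2 was the most abundant mitochondrial member at 153 TPM, followed by RARS2 at 93.5 TPM. VARS2 (18.4 ± 2.60 TPM) and WARS2 (21.1 ± 1.10 TPM; SD, n = 2 each) were lowest. The median level in control was 112 TPM over cytosolic and 42.3 TPM over mitochondrial genes. In control the cytosolic gene exceeded its partner in 17 of 17 pairs, from 1.14-fold (HARS over HARS2) to 6.68-fold (EPRS over PARS2).

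Under SNP, EPRS moved from rank 3 to rank 1 of the 36 genes, at 340 ± 30.3 TPM against 301 ± 16.6 TPM for LARS (SD, n = 2 each). That gap is of about the size of the spread between the SNP libraries. EPRS was above LARS in both, at 362 against 313 TPM in SNP a and 319 against 289 TPM in SNP b. NARS moved from rank 11 to rank 5 and VARS from rank 10 to rank 18.

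The summed level of the 20 cytosolic mRNAs was 2611 and 2853 CPM in control and 3239 and 3073 CPM in SNP libraries, a ratio of group means of 1.16. EPRS, LARS and NARS, the 3 genes with the largest positive differences, came to 71.6% of the net difference of 424 CPM, in which VARS counted against the rises. The 16 mitochondrial mRNAs summed to 674 and 694 CPM in control and 715 and 694 CPM in SNP libraries, and the groups overlapped. In TPM these sums were 791 and 831 in control and 901 and 900 in SNP libraries, without overlap. The ratio of group means was higher in TPM than in CPM for both sets. It was 1.11 against 1.03 for the mitochondrial and 1.24 against 1.16 for the cytosolic sum. The separation in TPM is therefore not read as a mitochondrial rise. On the TPM scale the cytosolic sum was 2.90 and 3.08 times the mitochondrial sum in control and 3.34 and 3.34 times in SNP libraries.

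The synthetase mRNAs differ in base composition, and the fold changes moved with it. Composition is given as the share of guanine minus that of cytosine over a gene's annotated transcripts, in percentage points (G-C). G-C was high in NARS (6.80, with 25.7% guanine and 18.9% cytosine), HARS2 (6.34), HARS (5.72) and EPRS (4.29). It was low in VARS (0.638), PARS2 (-2.00) and SARS2 (-2.28). The guanine share alone did not follow this order, at 31.0% in VARS, 29.5% in SARS2 and 23.3% in EPRS. Across the 20 cytosolic genes Spearman's rho between log2 fold change and G-C was 0.823. It was 0.482 across the 16 mitochondrial genes and 0.480 across 14724 tested genes. These are descriptions across genes of the same libraries, and genes are not independent replicates.

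At a boundary of 4 points, chosen after the values were seen, 6 of the 8 cytosolic genes with G-C at or above it were called higher. Among the 12 below it, SARS was called higher and VARS lower. DARS and RARS were at or above it and did not pass the threshold. Over all genes tested at or above 4 points, 41.0% were called higher and 1.82% lower. Of the 13021 tested genes below it, 9.99% were called higher, and 1826 genes were called lower.

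**Figure D3:**
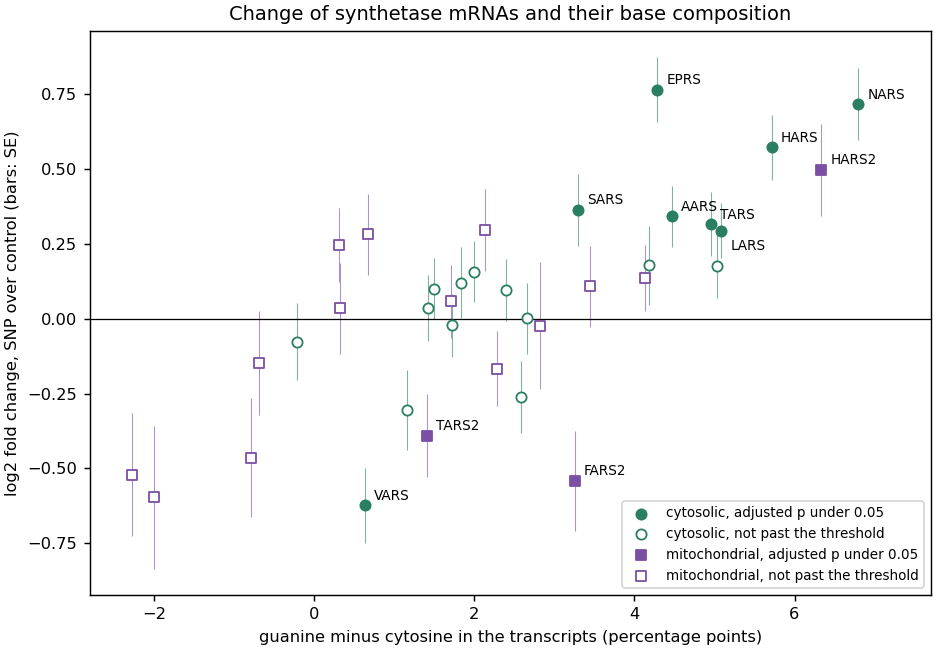
Log2 fold change of SNP over control (vertical axis, bars of 1 SE from edgeR) against guanine minus cytosine in percentage points, for cytosolic and mitochondrial synthetase genes. Filled symbols have an adjusted p below 0.05; EPRS, NARS, HARS and HARS2 lie at upper right and VARS at lower left of the cytosolic points.

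With per-library offsets for exon length, GC content and G-C fitted over all genes, most cytosolic rises were not called. Such offsets take out any difference between libraries that runs with these properties, whatever its source. Smaller values for genes of high G-C thus follow from their construction. Over all tested genes at or above 4 points, the median log2 fold change was 0.38 without and 0.0093 with the offsets. EPRS still rose (log2 fold change 0.42, edgeR adjusted p = 0.0073), and VARS still fell (-0.62, adjusted p = 0.0011). NARS (0.19, adjusted p = 0.262), HARS (0.11, 0.377), SARS (0.19, 0.229) and AARS (0.02, 0.908) kept a positive value and lost the call. TARS (-0.070, adjusted p = 0.605) and LARS (-0.14, adjusted p = 0.137) changed sign. FARSA was called lower (-0.33, adjusted p = 0.0208).

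In the mitochondrial set HARS2 went to 0.02 (adjusted p = 0.925). FARS2 (-0.75, adjusted p = 0.0040) and TARS2 (-0.39, 0.0325) stayed called lower, and RARS2 was called higher (0.39, 0.0257). The median log2 fold change with offsets was 0.018 over cytosolic and -0.060 over mitochondrial genes. Over all genes tested, 18.5% were called with these offsets, 9.70% higher and 8.77% lower.

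**Figure D4:**
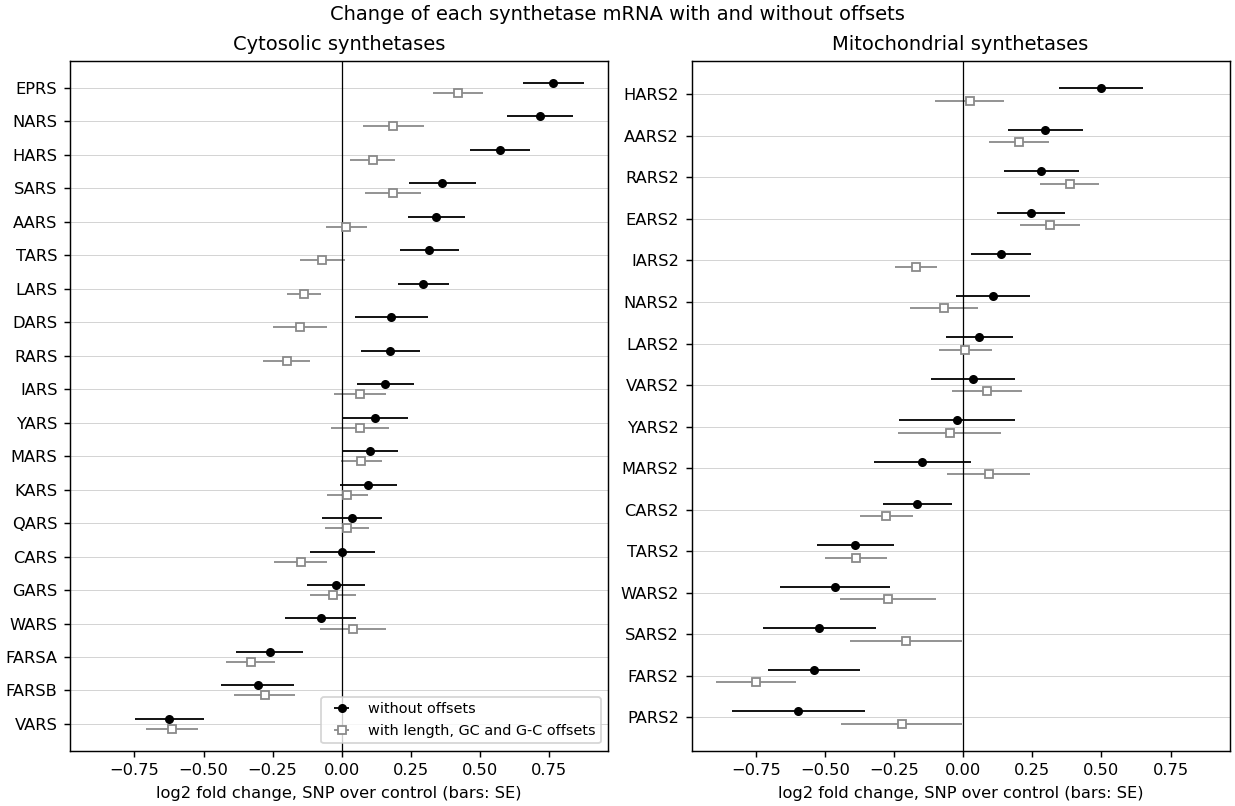
Log2 fold change of SNP over control with bars of 1 SE from edgeR, without offsets (black circles) and with offsets for length, GC and guanine-minus-cytosine content (open squares). The squares of NARS, HARS, AARS, TARS, LARS and HARS2 lie nearer to 0 than the circles or across it, and those of VARS and TARS2 stay in place.

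Partner genes were read from lists of the same pathway. Mitochondrial glutaminyl-tRNA is made by the amidotransferase of GATB, GATC and QRSL1, and MTFMT formylates the initiator methionyl-tRNA. None of these 4 genes passed the threshold in edgeR, at an unadjusted p below 0.05 or under DESeq2's Wald test, with log2 fold changes of 0.03, -0.06, -0.14 and -0.35. Of 5 editing and selenocysteine partners, AARSD1, which clears mischarged tRNA of alanine, was called higher. AARSD1 was at 16.9 and 17.5 CPM in control and 27.2 and 21.7 CPM in SNP libraries (0.51, edgeR adjusted p = 0.0438). Its call was lost without control a (0.198), control b (0.135) or SNP a (0.260) and with the offsets (0.986), and 1267 of its 3704 exonic bases are shared with PTGES3L-AARSD1. AARSD1 also lost the call under DESeq2's Wald test, in limma-voom and when all genes with any count were kept. DTD1 (-0.03), DTD2 (-0.19), PSTK (-0.03) and SEPSECS (0.20) did not pass the threshold.

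Of 16 genes of tRNA end processing and export, 4 rose and 1 fell, a share called (31.2%) near the 26.2% of all genes tested. XPOT, the tRNA exporter of the nucleus, was at 220 and 228 CPM in control and 348 and 329 CPM in SNP libraries. Its log2 fold change was 0.59 (edgeR adjusted p = 9.0e-05), called in all 15 alternatives and 0.44 with the offsets (adjusted p = 0.0010). RTCB, the tRNA ligase (0.66, adjusted p = 0.0012), and TRNT1, which adds the CCA end (0.63, adjusted p = 0.0014), also rose, and both lost the call with the offsets (0.677 and 0.0810). TRMT10C, a subunit of mitochondrial RNase P, rose by 0.56 (adjusted p = 0.0199), a call lost without control a (0.309), without SNP a (0.106), with the offsets (0.0894) and under DESeq2's Wald test (0.0771). RPP30, a subunit of nuclear RNase P, fell by 0.60 on the log2 scale (adjusted p = 0.0085), a call lost without control b (0.0732). RPP25, of the same enzyme, had -0.42 (adjusted p = 0.0939).

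Of 25 genes of amino acid supply and the ATF4 response, 3 rose and 4 fell, with a median log2 fold change of 0.054. These 7 calls of 25 are a share near the 26.2% of all genes tested. The risers were the transcription factors ATF3 (1.23, edgeR adjusted p = 0.0269) and CEBPG (0.57, 0.0022) and the transporter chain SLC3A2 (0.39, 0.0310). SLC7A5, the partner of SLC3A2 in leucine uptake, was at 135 and 167 CPM in control and 83.4 and 111 CPM in SNP libraries and fell (-0.64, adjusted p = 0.0011). SLC1A5, a glutamine transporter, was at 71.1 and 78.4 CPM in control and 44.7 and 52.5 CPM in SNP libraries and fell (-0.62, adjusted p = 0.0011), a call kept in all 15 alternatives. PSAT1 of serine synthesis fell by 0.56 on the log2 scale (adjusted p = 0.0097). CHAC1, named after its values were seen, had few reads (39 and 18 counts in control, 17 and 12 in SNP libraries) and fell by 1.32 on the log2 scale (adjusted p = 0.0318). That call was lost without control a (0.461), SNP a (0.0723) or SNP b (0.158).

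Several of these calls rested on single libraries or on composition. ATF3 lost the call without control a (0.197) or SNP a (0.313), SLC3A2 without control a (0.239), control b (0.121) or SNP b (0.111), PSAT1 without control b (0.0785) or SNP b (0.0728), and CEBPG without control b (0.0501). Under DESeq2's Wald test ATF3 and SLC3A2 also lost the call. With the offsets CEBPG (edgeR adjusted p = 0.165), SLC7A5 (0.0921) and CHAC1 (0.194) were not called. CHAC1 also lost the call with offsets for length and GC alone (edgeR adjusted p = 0.0852). ATF4 and ASNS, the asparagine synthetase that ATF4 induces, were also singled out after their values were seen. ATF4 mRNA was at 40.8 and 45.0 CPM in control and 51.7 and 45.5 CPM in SNP libraries (0.18, edgeR adjusted p = 0.342). ASNS was at 82.9 CPM in control a and at 192 CPM in control b, the latter level with SNP a and b at 191 and 182 CPM (0.45, adjusted p = 0.114).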

How the data were processed

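Sample titles and descriptions gave the groups and replicate letters. Per the labels, the read length was 75 bp and the stated depth 40 M reads, and the submitters' processing notes name the build GRCh38; the aligner and counter are not given in the sources used here. Each deposited table gives raw gene counts as whole numbers, which the authors left without normalization; this column was used for all tests and for CPM. For TPM, the authors scaled these by gene length to a fixed total per library, as deposited; this column was used for levels between genes. For RPKM, the authors scaled by exon length and read total, per the file headers; this column gave the read totals it implies (48.7 to 62.0 M). Of the genes in the table, 57980 were found in GENCODE 29, the source of positions, overlaps and base composition.

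Counts were fitted for all genes with edgeR 4.0.16 in R 4.3.3 (filterByExpr with a minimum count of 10 and a minimum total of 15, TMM factors from 0.989 to 1.01, quasi-likelihood test, all 4 libraries, no covariate). Adjustment was by Benjamini-Hochberg, with 0.05 as the threshold. The biological coefficient of variation was 0.0869. With 2 libraries per group an exact permutation test cannot go below a p of 0.333. The scripts were tested on simulated counts.

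The 36 genes, the partner, class and marker lists and the alternatives were chosen with earlier results of these data known. All 36 genes are named, as are all scaffold, charging and editing partners and, of each of the other 2 partner lists, the up to 6 genes with the smallest p. The alternatives were other filters and scalings, DESeq2 1.42.0, limma 3.58.1 (voom), the replicate letter as a block, lowess offsets (span 0.5, 3 iterations) on length, GC and guanine-minus-cytosine content, a threshold of 0.01, and leaving out each library. Promoter windows came from RefSeq on GRCh38.p14; genes matched by symbol.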

Additional observations from a re-analysis of the deposited data

How the results depend on the processing

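The cytosolic count of 8 calls became 3 (1 higher, 2 lower) with the guanine-minus-cytosine offsets, 4 (3 higher, 1 lower) at an adjusted p below 0.01, and between 4 and 9 when single libraries were left out, where a lone library is assumed to vary like the rest. The mitochondrial count of 3 calls became 1 with read totals implied by RPKM, 0 under DESeq2's Wald test (3 at an unadjusted p below 0.05), 5 with offsets on length and GC, 5 with these offsets and the replicate block, 0 in edgeR at an adjusted p below 0.01 (8 at an unadjusted p below 0.05), and between 0 and 3 when single libraries were left out. With composition offsets LARS (-0.14) and TARS (-0.070) changed sign and were not called. The offsets take out any difference that runs with composition, whatever its source, and the cause of the sign changes was not tested. Over 540 alternative fits of single synthetases, 457 kept direction and side of the threshold, 37 lost a call and 16 gained one. A further 2 lost a call and changed sign, and 28 changed sign with neither value called. Across genes, the deviations of control a and SNP a from their group means had a correlation of 0.050. With 2 libraries per group the b deviations mirror the a deviations, so the b libraries give the same value and no second estimate. The value shows little deviation shared by letter and does not settle whether the letters pair the samples. The replicate block gave 8 cytosolic and 4 mitochondrial calls (SARS2 gained, edgeR adjusted p = 0.0497). Depth limits the least counted members, down to 70 counts in a library.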
